A study of Mus musculus with 6 samples.

Results

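The Kelch-like (Klhl) genes encode substrate adaptors of a ubiquitin ligase. All rows of the mouse heart count table whose symbol is Klhl followed by a digit were taken, which gave 37 of 35976 genes. Of these, 35 averaged at least 0.2 CPM (gene counts scaled to a library total of 1000000, adjusted between libraries by TMM factors) in edited or control hearts and are described here. Klhl1, with means of 0.10 CPM in edited and 0.02 CPM in control hearts, and Klhl14, with 0.07 CPM in edited and 0.12 CPM in control hearts, were under that floor. Klhl35, at 0.64 CPM in edited and 0.50 CPM in control hearts, was the lowest gene inside it. All 35 genes passed the filter on low counts and were tested. Within them, 6 genes named as enriched in striated muscle (Klhl24, Klhl31, Klhl33, Klhl38, Klhl40 and Klhl41) were set beside the other 29. The 6 were listed by name and were not all among the higher Klhl genes in these hearts.

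The edited hearts were those of wild-type (WT) mice given AAV-MYL2-TadA8e-Sauri-U6-Camk2d sgRNA7. This is an adeno-associated virus carrying the adenine base editor TadA8e-Sauri and the guide sgRNA7, aimed at a splice site of Camk2d, a calcium-dependent heart kinase. The MYL2 promoter that drives the editor is active in heart muscle cells. The control hearts were of the same WT genotype and had no treatment. Each group held 3 RNA libraries, whose titles give the tissue only as heart. The sources used here give neither age nor dose, and the labels do not say that the libraries came from separate animals, so p-values measure only the spread between these samples. Virus, editor and edit came together, so their effects cannot be told apart.

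Total counts were 17265842 to 23097998 in edited and 17062412 to 19743748 in control libraries. Camk2d, the targeted gene, was at 138, 130 and 164 CPM in edited hearts and at 226, 220 and 224 CPM in control hearts. Some libraries stood apart. The summed level of 5 atrial markers was 1164 to 2679 CPM in edited hearts, but 42.2 CPM in control 1 and 20.2 CPM in control 3, against 1881 CPM in control 2. Bmp10, among the 5, was at 102 CPM in control 2 and at most 0.112 CPM in every other library, edited ones included. Control 1 also held 574 CPM of Xist and no counts of 4 genes of the Y chromosome, whereas Xist was at most 1.1 CPM in every other library. All 7 cardiomyocyte markers were lower in every edited library than in any control, as were 14.7% of all tested genes. Of the 7, 4 passed edgeR's test at an adjusted p under 0.05, beside 4.74% lower over all tested genes. The 7 markers summed to 59423 to 63628 CPM in edited and 71341 to 73554 CPM in control hearts. The defining skeletal muscle genes Myod1 and Pax7 were at 0 in all libraries, and the 12 skeletal muscle markers summed to 5.29 to 5.58 CPM in edited and 7.15 to 7.90 CPM in control hearts. Of 6 mesothelial markers, 4 rose and 1 fell, beside 4.93% higher and 4.74% lower over all tested genes. The 6 summed to 29.9 to 50.8 CPM in edited and 27.0 to 28.0 CPM in control hearts. Macrophage markers summed to 82.7 to 91.2 CPM in edited and 96.4 to 105 CPM in control hearts, and 0 of 6 passed edgeR's test (0 higher and 3 lower at an unadjusted p under 0.05). Neuron and glia markers summed to 40.4, 15.5 and 49.4 CPM in edited 1, 2 and 3 and to 11.3 to 15.4 CPM in control hearts. Of these 7 markers, 4 were tested by edgeR, with 0 called and 3 higher at an unadjusted p under 0.05. Snap25, Syt1 and Prph were not tested. Over all tested genes, 12.7% were higher and 11.7% lower at that p. Edited 2 had 162 CPM of the smooth muscle gene Myh11, against 70.1 and 52.7 CPM in edited 1 and 3 and 51.2 to 58.8 CPM in control hearts. It also had the highest sum of fibroblast markers, 5277 CPM, against 3767 and 3974 CPM in edited 1 and 3 and 3189 to 3852 CPM in control hearts. Among these markers edited 2 was the highest library for Col1a1 and Col1a2 (2297 and 2121 CPM), but not for Pdgfra, Dcn, Lum or Tcf21.

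A Klhl protein joins the cullin CUL3 through its BTB and BACK domains and holds a substrate with its kelch repeats, a propeller-shaped fold. CUL3 then brings in RBX1, which recruits the enzyme that transfers ubiquitin, and the substrate is degraded or altered in function. In striated muscle several Klhl proteins act on sarcomere proteins, and loss of human KLHL40 or KLHL41 causes nemaline myopathy, a disease of the muscle thin filament.

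The promoters of Klhl33, Klhl41 and Klhl31 are shown because these are the muscle-enriched genes whose edited libraries all lay below the controls. Each runs from 250 bases before to 50 bases after the start of transcription, 5′ to 3′ on the gene's strand, from RefSeq on GRCm38.p6. Capitals mark matches to the MEF2 motif, bound by a family of muscle transcription factors, and to CAGCTG, an E-box.
Klhl33, chr14:50897434-50897733, minus strand: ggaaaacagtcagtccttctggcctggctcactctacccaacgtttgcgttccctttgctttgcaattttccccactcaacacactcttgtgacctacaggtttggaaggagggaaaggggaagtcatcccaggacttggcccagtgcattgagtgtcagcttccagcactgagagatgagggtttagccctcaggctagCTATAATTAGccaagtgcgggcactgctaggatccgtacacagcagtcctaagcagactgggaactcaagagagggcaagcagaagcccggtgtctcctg
Klhl41, chr2:69669870-69670169, plus strand: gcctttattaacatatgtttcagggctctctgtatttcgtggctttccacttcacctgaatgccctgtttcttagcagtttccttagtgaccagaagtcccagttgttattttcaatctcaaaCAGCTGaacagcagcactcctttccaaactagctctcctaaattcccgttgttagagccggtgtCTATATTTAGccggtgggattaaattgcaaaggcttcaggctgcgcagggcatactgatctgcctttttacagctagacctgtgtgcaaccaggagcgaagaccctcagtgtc
Klhl31, chr9:77636482-77636781, plus strand: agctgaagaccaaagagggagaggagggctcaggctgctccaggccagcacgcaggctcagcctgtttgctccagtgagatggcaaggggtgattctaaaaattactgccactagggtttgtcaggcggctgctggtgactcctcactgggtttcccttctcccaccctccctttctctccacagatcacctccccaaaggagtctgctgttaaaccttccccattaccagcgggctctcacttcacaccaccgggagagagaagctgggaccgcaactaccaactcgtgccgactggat

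Of the 35 described genes, 30 matched a RefSeq entry, with 40 promoters in all; Klhl24, Klhl38, Klhl30, Klhl8 and Klhl42 were without one. The MEF2 motif was found in 2 of the 40, those of Klhl33 (first base at -50 from the start) and Klhl41 (-63), or 5% against 3.19% of all 32851 promoters. CAGCTG stood in 11 of 40 (27.5%, against 16.3% of all promoters), among them Klhl41 (-127) and Klhl40 (-10). The TEAD motif CATTCC was in 12.5% of Klhl and 14.7% of all promoters, TATAAA in 7.5% and 13.6%, and the GATA motif AGATAA in 7.5% and 11.2%. The CArG box, bound by serum response factor, was in 0 of 40 Klhl promoters and 1.63% of all. Both strands were searched, and matches to different motifs may overlap. The Klhl31 window held none of the 6 motifs. The promoters of the muscle-enriched genes had a median of 5 CpG sites, those of all Klhl genes 16 and all promoters 7. These matches are descriptions of letters and do not show binding. Klhl33 has a second RefSeq start on chromosome 14, whose window held CATTCC (-63) but no MEF2 match. The deposited table's exons begin at 50897652, which differs from the start printed above.

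The largest fall in the family was that of Klhl33. Klhl33 lies on chromosome 14 from 50888581 to 50897652 (mm10, minus strand) with 5659 bases of exon. Its level was 5.93, 6.96 and 5.97 CPM in edited hearts and 12.6, 17.2 and 15.7 CPM in control hearts. Every edited library was below every control, and control 1 was the lowest of the controls. These levels rested on 139, 123 and 107 counts in edited and 210, 327 and 300 counts in control libraries. Klhl33 fell to 41.3% of the control level (34.7% to 49.2% at ±2 SE), a log2 change of -1.28 (SE 0.13, edgeR quasi-likelihood test, adjusted p = 1.1e-04 by Benjamini-Hochberg over all genes). It was called under all 15 other settings tried, with log2 changes of -1.46 to -1.18 and adjusted p of 2.609e-24 to 0.005789. Its nearest tested neighbours on either side, Gm26782 and Osgep, had log2 changes of 0.02 and -0.06, neither of which passed (edgeR adjusted p = 0.9874 and 0.6314). In a sample of heart tissue, fewer cells of a type and less RNA per cell cannot be told apart, here and in every result that follows.

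Across the family, 4 of 35 genes fell (11.4%) and 0 rose at an adjusted p under 0.05 in edgeR's quasi-likelihood test. Over all 14879 genes tested, 4.74% were lower and 4.93% higher, 9.66% in all. The 4 were Klhl33, Klhl23, Klhl31 and Klhl11. At an unadjusted p under 0.05 there were 5 higher and 5 lower genes (14.3% each), against 12.7% and 11.7% of all genes. DESeq2 called 1 gene higher (Klhl38) and 3 lower, beside 4.15% and 4.38% of all genes. The limma voom fit called 1 higher (Klhl34) and 5 lower, beside 8.16% and 7.96% of all genes. For 11 of 35 genes (31.4%) the 2 groups were apart, 5 higher and 6 lower in edited hearts. The share was 29.3% over all tested genes, with 14.6% higher and 14.7% lower. The median absolute log2 change was 0.12 both in the family and over all tested genes, and 24 of the 35 genes lay within 0.2 of 0. The count of falls was 1 without control 1 or without control 3, 2 without control 2 or without edited 3, and 1 with controls 1 and 3 both left out. In that last fit control 2 is the only control, it is assumed to vary like the edited libraries, and 53 genes of the whole table were called lower.

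**Figure D1:**
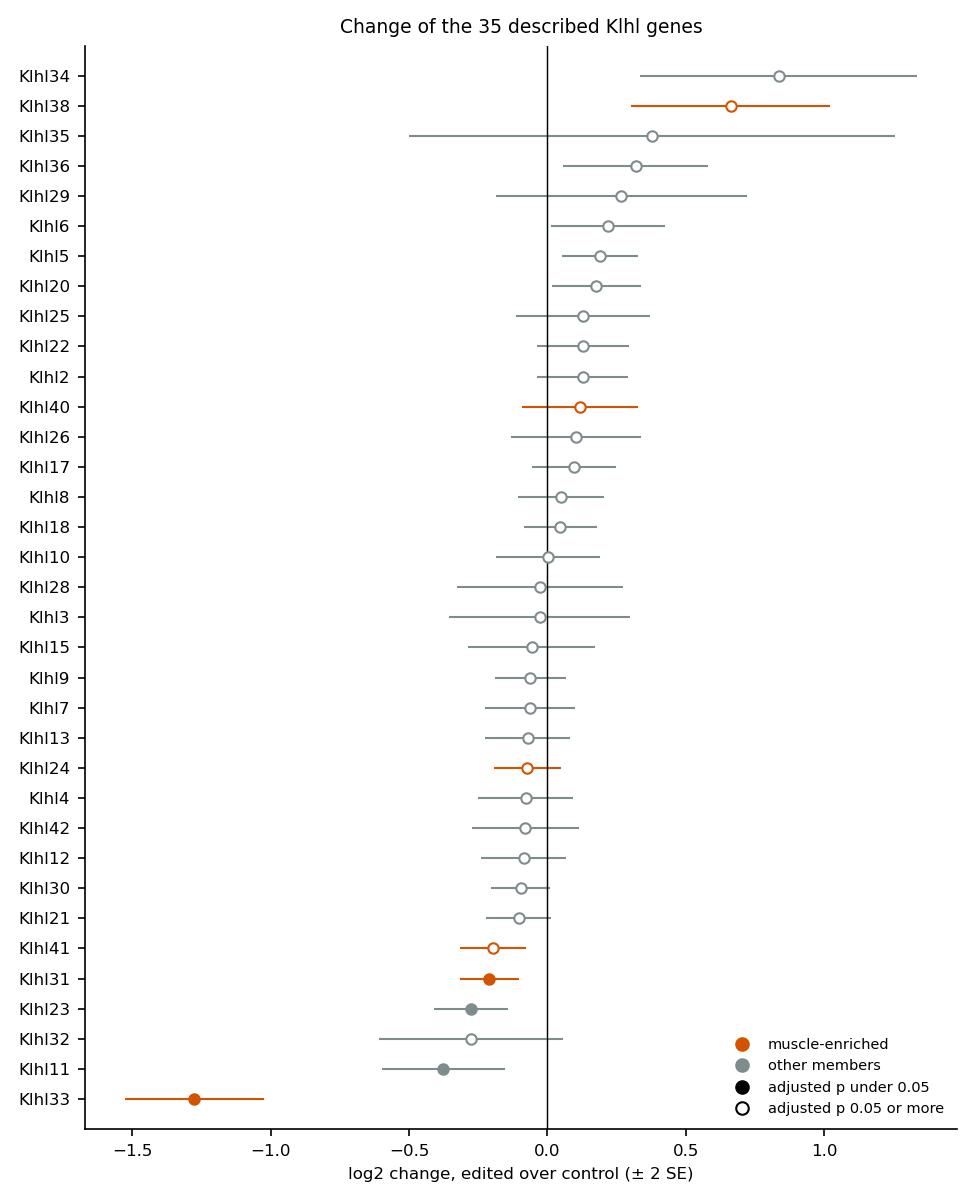
Log2 change, edited over control, of the 35 described Klhl genes, with bars of ±2 SE; orange points are muscle-enriched genes, grey the others, and filled points passed an adjusted p under 0.05 in edgeR's quasi-likelihood test. Klhl33 lies alone at -1.28, while 24 genes lie within 0.2 of 0.

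Among the 6 muscle-enriched genes, Klhl33 and Klhl31 fell (33.3%) and 0 rose, beside 4.74% lower and 4.93% higher over all tested genes. The median log2 change of the 6 was -0.14, beside 0.00 over the other 29 members and 0.00 over all tested genes. Their summed level was 428, 421 and 461 CPM in edited hearts and 491, 477 and 474 CPM in control hearts, so each edited sum was below each control sum. The other 29 genes and the 2 below the floor summed to 786, 743 and 779 CPM in edited and 778, 810 and 783 CPM in control hearts, with overlap.

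Klhl31 acts in mouse skeletal muscle on filamin C, an actin crosslinker of the Z-disc, and its loss there causes a myopathy. It was at 126, 127 and 132 CPM in edited hearts and at 156, 142 and 149 CPM in control hearts, with no overlap. The gene fell to 86.5% of the control level (log2 change -0.21, SE 0.05, edgeR adjusted p = 0.02548). The call was lost in 7 of 15 other settings. Without control 1 the edgeR adjusted p was 0.113, without control 3 it was 0.1235, and without edited 1 or edited 3 it was 0.05578 or 0.07044. It was 0.06221 with the replicate number as a block and 0.4514 with the atrial gene Myl7 as a covariate. With controls 1 and 3 both left out the log2 change was -0.15 (edgeR adjusted p = 0.554).

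Klhl41 keeps nebulin, the ruler protein of the thin filament, stable in mouse muscle. It had 84.0, 80.1 and 78.3 CPM in edited hearts and 97.9, 93.0 and 87.2 CPM in control hearts. The groups did not overlap, but the gene missed the threshold, at a log2 change of -0.20 (SE 0.06) and an edgeR adjusted p of 0.05192. Klhl41 passed with limma voom (adjusted p = 0.02815), without a filter on low counts (edgeR adjusted p = 0.02187) and without edited 1 (0.03475). It did not pass in the other 12 settings, among them those without edited 3 (edgeR adjusted p = 0.1856), control 1 (0.1918) or control 2 (0.1043) and with controls 1 and 3 both left out (0.4093).

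Klhl38 was higher in every edited library than in any control. Its levels were 12.3, 13.3 and 19.3 CPM in edited hearts and 8.07, 10.3 and 9.76 CPM in control hearts. Edited 3 stood above the other two edited libraries, which were also above the controls. The log2 change of 0.66 (SE 0.18) missed the threshold with an edgeR adjusted p of 0.05714, and passed in 6 of 15 other settings, among them DESeq2 (adjusted p = 0.00349). The adjusted p ranged from 0.0006064 to 0.5947 over the 15, the highest with controls 1 and 3 left out. Without edited 3 the log2 change was 0.44.

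Klhl40 stabilises nebulin and leiomodin 3 in mouse muscle. It measured 12.0, 11.7 and 13.5 CPM in edited and 12.8, 10.2 and 11.3 CPM in control hearts, overlapping, with a log2 change of 0.12 (SE 0.10, edgeR adjusted p = 0.5457). Klhl40 shares 6.23% of its exon bases with Hhatl on the opposite strand. Hhatl averaged 98.8 CPM in edited and 125 CPM in control hearts. The sources used here do not say whether the counting used strand, and the part of Hhatl in the Klhl40 value was not tested. Klhl24, whose human counterpart is mutated in a skin-blistering disorder with cardiomyopathy, measured 187, 182 and 212 CPM in edited and 204, 205 and 202 CPM in control hearts. These overlapped, the log2 change was -0.07, and its interval at ±2 SE ran from -0.19 to 0.05.

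**Figure D2:**
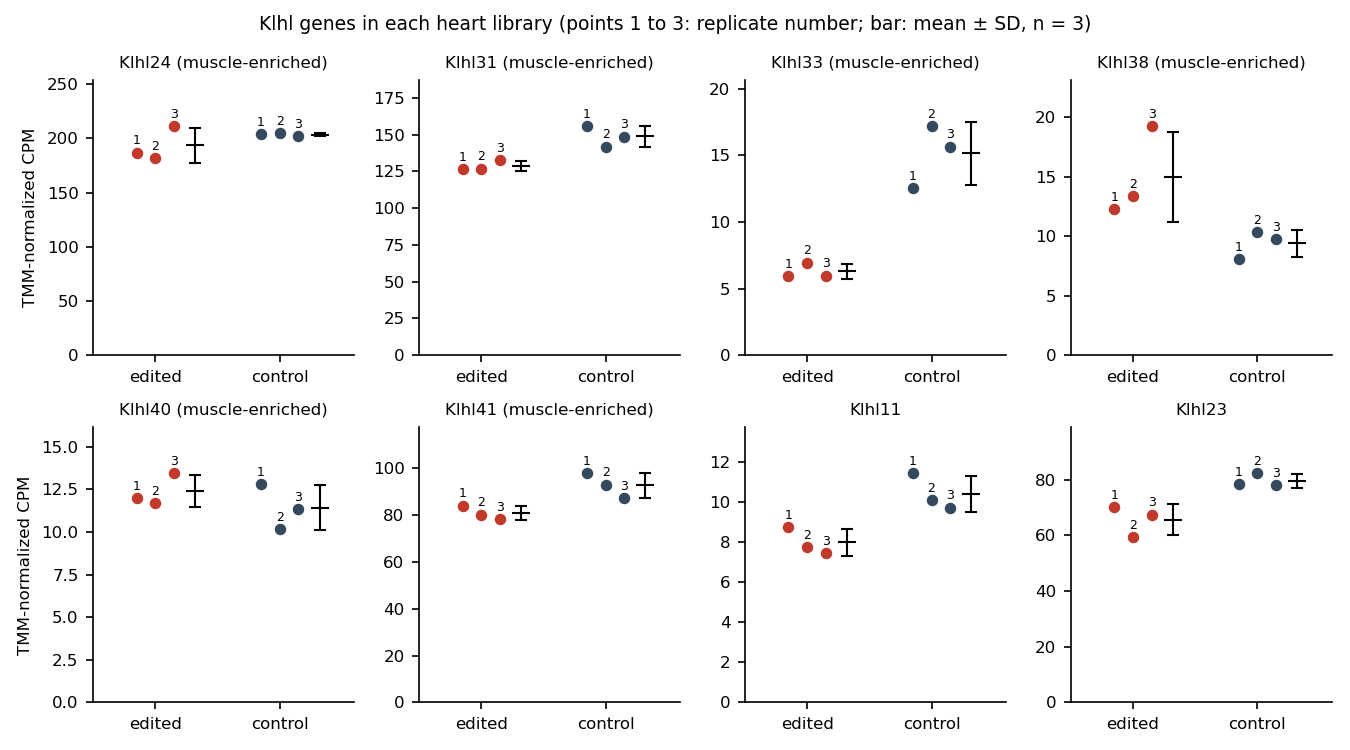
TMM-normalized CPM of the 6 muscle-enriched Klhl genes and of Klhl11 and Klhl23 in each library, edited left and control right; points carry the replicate number and bars are mean ± SD (n = 3). Klhl33 separates the groups most widely, and Klhl24 and Klhl40 overlap.

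Because the cardiomyocyte markers were lower in edited hearts, the muscle-enriched genes were also set relative to them, a description added after their values were seen and given without a test. The geometric mean of the 7 markers was 5122, 4827 and 4879 CPM in edited hearts and 6033, 5803 and 6117 CPM in control hearts, a log2 difference of -0.28. Per 1000 CPM of that mean, Klhl33 stood at 1.16, 1.44 and 1.22 in edited and 2.08, 2.97 and 2.56 in control hearts. It remained lower in every edited library, with a log2 ratio of -0.98. Klhl31 stood at 24.7, 26.3 and 27.1 in edited and 25.8, 24.4 and 24.3 in control hearts, overlapping. Klhl41 also overlapped, at 16.4, 16.6 and 16.0 in edited and 16.2, 16.0 and 14.3 in control hearts. Klhl38, Klhl40 and Klhl24 were higher in every edited library on this scale, with log2 ratios of 0.93, 0.39 and 0.20. Because the marker mean differed by -0.28, a gene with equal CPM in both groups also comes out higher on this scale. In CPM, Klhl40 and Klhl24 overlapped between groups, with log2 differences of 0.12 and -0.08. The part of the marker difference in these results was not tested.

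**Figure D3:**
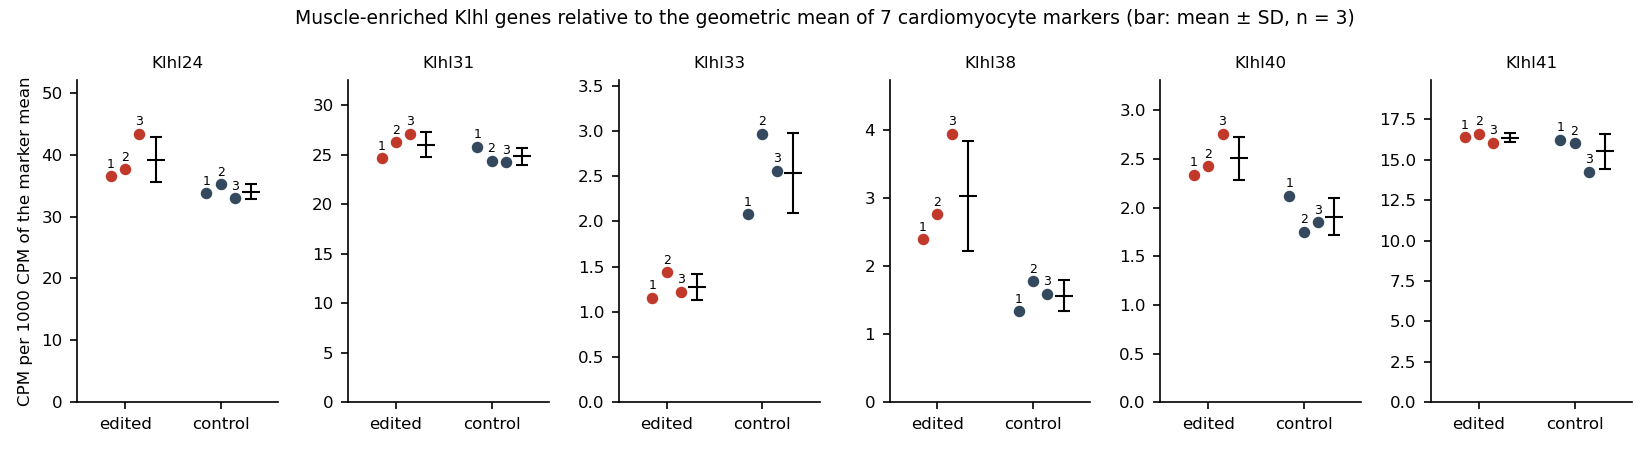
CPM of the 6 muscle-enriched Klhl genes per 1000 CPM of the geometric mean of 7 cardiomyocyte markers in each library, edited left and control right; points carry the replicate number and bars are mean ± SD (n = 3). On this scale Klhl33 stays lower in edited hearts (log2 ratio -0.98), Klhl31 and Klhl41 overlap, and Klhl38 is higher (0.93).

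Of the other 29 genes, Klhl23 and Klhl11 fell (6.9%) and 0 rose, beside 4.74% lower and 4.93% higher over all tested genes. Klhl23 was at 70.1, 59.4 and 67.4 CPM in edited hearts and at 78.5, 82.4 and 77.9 CPM in control hearts, without overlap. It fell to 82.5% of the control level (log2 change -0.28, SE 0.07, edgeR adjusted p = 0.01877). The edgeR adjusted p was 0.0585, 0.05963 and 0.08346 without control 1, 2 and 3 in turn. It was 0.1445 with the atrial gene Myl7 as a covariate. With controls 1 and 3 both left out the log2 change was -0.33. The call was lost in these 5 of 15 other settings. Relative to the cardiomyocyte markers its groups overlapped (log2 ratio -0.01). Klhl23 lies 138 kb from Klhl41 on chromosome 2.

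Klhl11, known in humans as the target of autoantibodies in a paraneoplastic encephalitis, was at 8.74, 7.75 and 7.43 CPM in edited hearts and at 11.4, 10.1 and 9.71 CPM in control hearts. The groups did not overlap, and its log2 change was -0.38 (SE 0.11, edgeR adjusted p = 0.04826). This value is uncertain: 32.24% of Klhl11 exon bases lie opposite Klhl10, a gene needed for sperm maturation in mice, and the call was lost in 10 of 15 other settings, each library left out except edited 1 among them. Klhl10 averaged 10.8 CPM in both groups (log2 change 0.00).

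Klhl34, on the X chromosome, was at 1.58, 1.47 and 1.84 CPM in edited and 0.78, 0.95 and 0.99 CPM in control hearts, from 26 to 37 counts in edited and 13 to 19 counts in control libraries. Control 1, the library with Xist, was the lowest, and the groups did not overlap. The log2 change of 0.84 (SE 0.25) came close to the threshold (edgeR adjusted p = 0.05045). The other X-linked members, Klhl4, Klhl13 and Klhl15, had log2 changes between -0.08 and -0.06. Klhl5, Klhl36 and Klhl6 were also higher in every edited library, with log2 changes of 0.19, 0.32 and 0.22 that did not pass (edgeR adjusted p = 0.1014, 0.1527 and 0.2111). Klhl6, which takes part in B cell receptor signalling, averaged 18.0 CPM in edited and 15.6 CPM in control hearts. The summed B cell markers were lower than that, at 5.42 to 8.31 CPM in edited and 6.21 to 6.76 CPM in control hearts. Which cells the Klhl6 RNA came from was not tested.

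Adaptors with roles in cell division did not pass the threshold. Klhl9, Klhl13 and Klhl21, which guide Aurora B in dividing human cells, averaged 91.7, 41.1 and 66.5 CPM in edited hearts and 95.8, 43.3 and 71.5 CPM in control hearts. Klhl22, an adaptor for PLK1 in human cells, averaged 30.2 CPM in edited and 27.6 CPM in control hearts. Klhl18, an adaptor for Aurora A in human cells, averaged 26.9 CPM in edited and 26.0 CPM in control hearts. Klhl42, which targets the microtubule-severing katanin in human cells, averaged 15.5 CPM in edited and 16.3 CPM in control hearts. The 2 adaptors of WNK kinases, regulators of salt transport, were Klhl2 at 16.4 CPM in edited and 15.04 CPM in control hearts and Klhl3 at 5.86 CPM in edited and 5.99 CPM in control hearts.

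Other adaptors with known human substrates also stayed short of the threshold. Klhl12, which acts on Dishevelled and on the coat protein SEC31, averaged 27.9 CPM in edited and 29.6 CPM in control hearts. Klhl20, an adaptor for PML and DAPK1, averaged 26.4 CPM in edited and 23.4 CPM in control hearts. Klhl25, an adaptor for the translation repressor 4E-BP1, was at 12.4 CPM in edited and 11.3 CPM in control hearts, and Klhl15, for a subunit of the phosphatase PP2A, at 7.34 CPM in edited and 7.66 CPM in control hearts. None of these differences passed the test. Klhl7, mutated in a human retinal degeneration, averaged 68.0 CPM in edited and 71.1 CPM in control hearts. Klhl17, an actin-binding protein of neurons in rat, averaged 29.6 CPM in edited and 27.7 CPM in control hearts.

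The remaining genes, none of which passed, are given by their means. In edited hearts Klhl4, Klhl5, Klhl6 and Klhl8 averaged 21.8, 30.4, 18.0 and 16.7 CPM, and in control hearts 23.02, 26.7, 15.6 and 16.2 CPM. In edited hearts Klhl26, Klhl28, Klhl29, Klhl32 and Klhl36 averaged 16.3, 8.70, 1.98, 3.65 and 6.27 CPM, and in control hearts 15.1, 8.94, 1.66, 4.44 and 5.02 CPM. Klhl32 had the lowest mean in edited relative to control hearts among them, at a log2 change of -0.28 (SE 0.17). Klhl30 averaged 93.0 CPM in edited and 99.4 CPM in control hearts; its groups did not overlap, but the log2 change of -0.10 did not pass (edgeR adjusted p = 0.294).

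**Figure D4:**
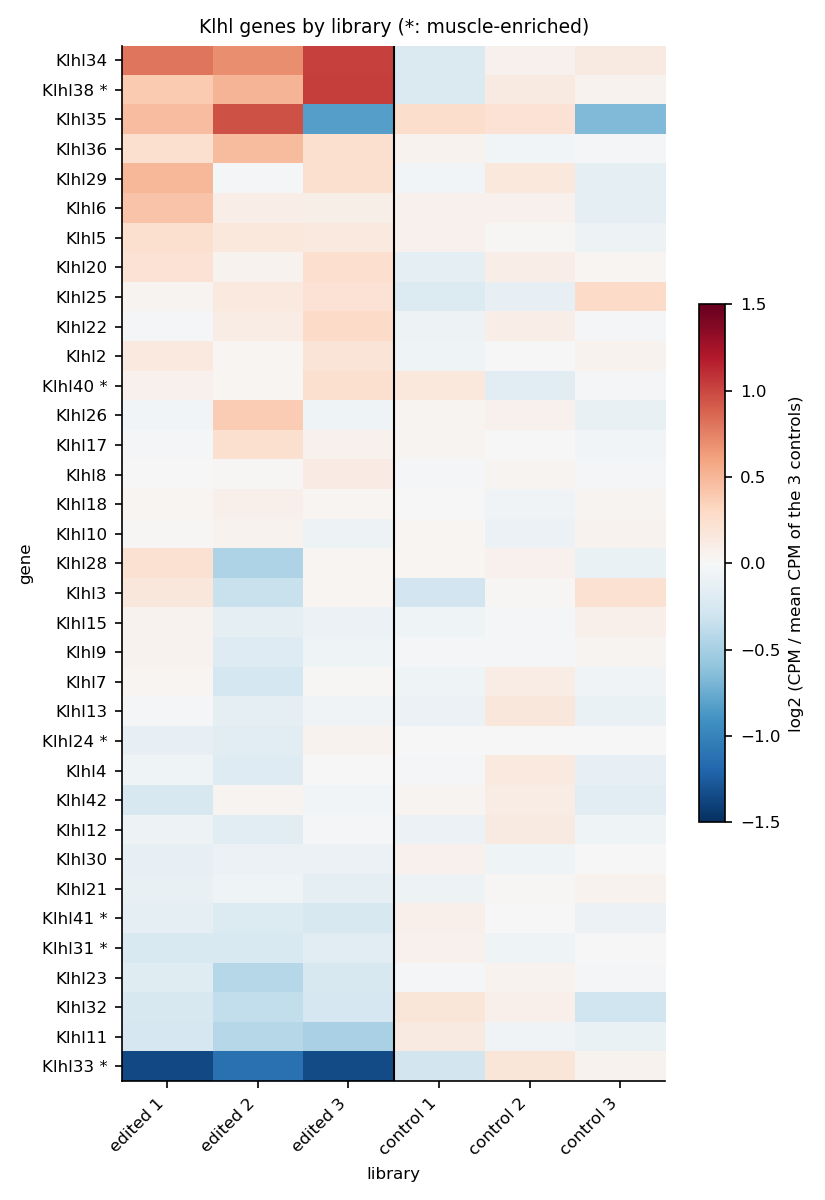
Log2 of each library's CPM over the mean of the 3 controls for the 35 described Klhl genes, ordered by log2 change, edited libraries left of the black line and controls right; asterisks mark muscle-enriched genes. The bottom row, Klhl33, is low in all 3 edited libraries, and Klhl34 and Klhl38 at the top are high in them.

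Per kilobase of exon, Klhl41 had the highest level in both groups, at 31.8 ± 1.1 CPM per kb in edited and 36.5 ± 2.1 in control hearts (SD, n = 3). Klhl30 followed at 30.8 ± 0.4 in edited and 32.9 ± 1.4 CPM per kb in control hearts, and lay within the spread of Klhl41 in edited hearts. Klhl24, Klhl31 and Klhl9 came next, at 23.4, 20.5 and 21.7 CPM per kb in edited and 24.6, 23.8 and 22.7 in control hearts. Klhl33 ranked 30 of 37 in edited and 25 of 37 in control hearts, at 1.11 CPM per kb in edited and 2.68 in control hearts. It made up 0.52% of the summed Klhl CPM in edited and 1.19% in control hearts, whereas Klhl24 held the largest share, 16.03% in edited and 16.01% in control hearts.

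No core gene of the ligase that Klhl proteins serve passed the threshold. Of 23 genes of the CUL3 core and of neddylation, the modification that activates cullins, 0 passed in edgeR's quasi-likelihood test. At an unadjusted p under 0.05 there were 7 lower (30.4%) and 0 higher, against 11.7% lower and 12.7% higher over all genes. With limma voom 2 of the 23 were called (Ube2f and Cops3), against 16.1% of all genes. All 23 had log2 changes within 0.2 of 0, with a median of -0.07. Cul3 itself averaged 125.6 ± 11.5 CPM in edited and 137.8 ± 3.9 CPM in control hearts (SD, n = 3; log2 change -0.13), and Rbx1 averaged 70.0 ± 2.4 CPM in edited and 77.0 ± 1.9 CPM in control hearts (-0.14). Of 12 tested BTB-kelch genes without a Klhl number, 0 passed in edgeR; 1 had an unadjusted p under 0.05, Enc1, with a log2 change of 0.51 (adjusted p = 0.09626), which DESeq2 and limma voom called, as did edgeR without control 2. Keap1, the sensor adaptor of the oxidative stress factor NRF2, had a log2 change of -0.05.

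Among 22 genes for substrates and partners of Klhl proteins, 3 rose and 1 fell, beside 4.93% higher and 4.74% lower over all genes. The mitotic kinases Aurkb and Plk1 rose. Aurkb was at 13.6, 16.1 and 14.6 CPM in edited and 11.2, 9.06 and 11.4 CPM in control hearts (log2 change 0.48, SE 0.11, edgeR adjusted p = 0.01248). Plk1 was at 16.5, 22.2 and 19.0 CPM in edited and 14.9, 10.5 and 11.4 CPM in control hearts (log2 change 0.65, SE 0.14, edgeR adjusted p = 0.02124). Neither overlapped between groups. All 5 proliferation markers also rose, with summed levels of 263 to 282 CPM in edited and 187 to 229 CPM in control hearts, and their part in the Aurkb and Plk1 values was not tested. Eif4ebp1, encoding 4E-BP1, rose by 0.25 on the log2 scale, and Wnk1 fell to 364 ± 32 CPM in edited hearts, against 430 ± 13 CPM in control hearts (SD, n = 3; log2 change -0.24, edgeR adjusted p = 0.03186). Aurkb was the one substrate gene still called without edited 3, control 2 or control 3, Aurkb and Plk1 were called without control 1, and 0 of the 22 with controls 1 and 3 both left out.

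Sarcomere substrates of the muscle-enriched adaptors did not pass in edgeR's quasi-likelihood test, but limma voom called Neb, Lmod3, Flnc and Des, and DESeq2 and upper-quartile factors called Flnc. Neb, encoding nebulin, averaged 4.94 CPM in edited and 3.67 CPM in control hearts with overlap, and Lmod3, encoding leiomodin 3, averaged 86.2 CPM in edited and 95.3 CPM in control hearts, without overlap (log2 change -0.15, edgeR adjusted p = 0.12). Flnc, encoding filamin C, averaged 403 CPM in edited and 364 CPM in control hearts. Its groups did not overlap, and the log2 change was 0.15 (SE 0.05, edgeR adjusted p = 0.07666). Nrap and Des had log2 changes of -0.07 and -0.12, and Des was called by edgeR without edited 2.

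Of 19 other ubiquitin ligase genes of striated muscle, 3 fell (15.8%) and 0 rose, beside 4.74% lower and 4.93% higher over all genes. All 3 were Asb genes, which encode substrate adaptors of cullin 5 ligases. Asb15 was at 22.7, 19.2 and 19.8 CPM in edited and 34.9, 32.02 and 36.8 CPM in control hearts (log2 change -0.74, SE 0.08, edgeR adjusted p = 1.948e-04). Asb14 and Asb2 had log2 changes of -0.35 and -0.21 (edgeR adjusted p = 0.009918 and 0.01655). Trim63 and Fbxo32, the muscle atrophy ligases MuRF1 and atrogin-1, had log2 changes of -0.11 and -0.06 and did not pass. The count of falls and rises in this list was 5 without edited 2, 1 without edited 3, 1 without control 3 and 0 with controls 1 and 3 both left out.

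**Figure D5:**
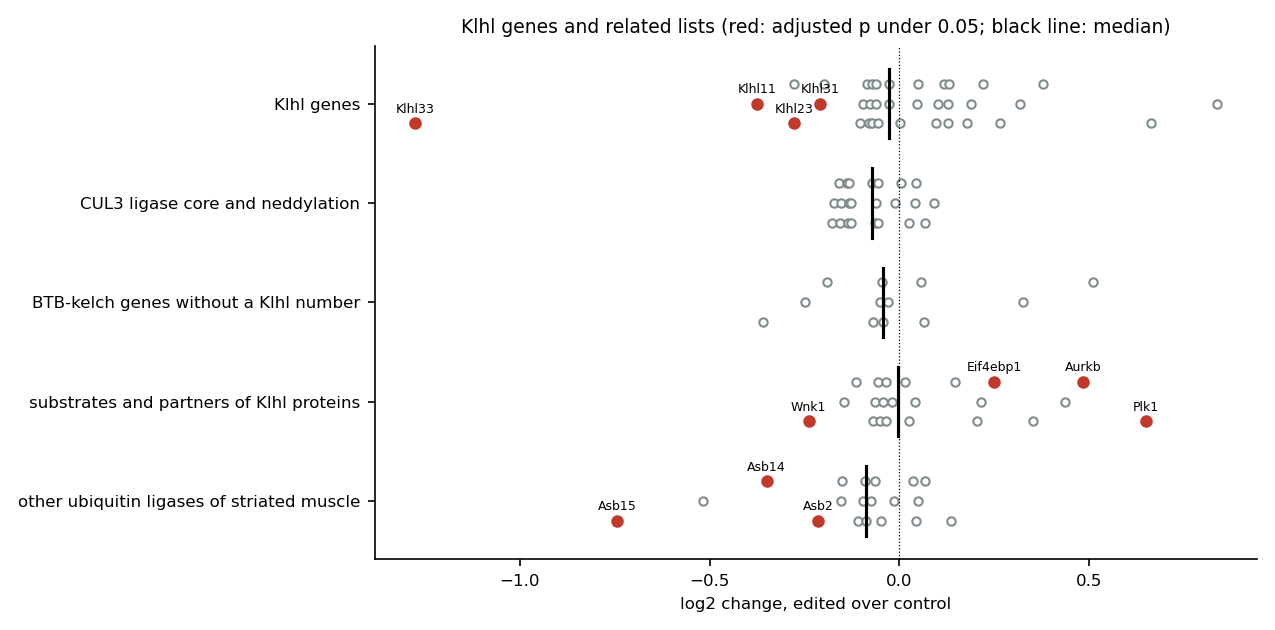
Log2 change, edited over control, of the described Klhl genes and of 4 related lists, one point per tested gene with vertical offsets for legibility; red points passed an adjusted p under 0.05 in edgeR's quasi-likelihood test and black lines are medians. The 23 CUL3 core genes lie within 0.2 of 0, and Klhl33 and Asb15 lie farthest to the left.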

How the data were processed

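The authors deposited a table of raw read counts per gene, with 2 columns per library that held the same values; the raw_1 column was used. The submitters' processing notes name STAR, featureCounts, cutadapt and FastQC and the build mm10. The sources used here give no versions, no strand setting and no treatment of reads that match several places.

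From the counts, edgeR 4.0.16 in R 4.3.3 (filterByExpr, TMM factors of 0.9711 to 1.039, robust quasi-likelihood test, Benjamini-Hochberg over 14879 genes, threshold 0.05) compared 3 edited with 3 control libraries. SE is the log2 change over the square root of F. DESeq2 1.42.0, limma voom 3.58.1 and the other settings are given in the closing section. Replicates differed beyond sampling noise (chi-square per degree of freedom 3.949 to 14.41). The steps were tested on simulated counts. Of genes changed 1.5-fold, 2-fold and 4-fold, 67.7%, 84.8% and 100% were called, along with 14 genes left unchanged. Smaller changes were not simulated.

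The members and lists were chosen with earlier results of these data known. Given in full are the 6 muscle-enriched genes and every other member past the threshold; from each related list, the members past the threshold and some fixed by name. Further genes, Klhl34 and Klhl30 among them, were picked after their values were seen.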

Additional observations from a re-analysis of the deposited data

How the results depend on the processing

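Over 15 other settings, Klhl33, Klhl24 and Klhl40 kept their side of the threshold, and none of the 8 members given in full changed direction. The median of the muscle-enriched genes lay between -0.16 and -0.11. The count of Klhl genes called higher (0) became 2 with upper-quartile factors, 1 without a filter, 2 with at least 1 CPM in 3 libraries, 1 with DESeq2, 1 with limma voom and 2 at a threshold of 0.1, and 0 to 1 with a library left out. The count called lower (4) became 1 with Myl7, an atrial gene, as a covariate, 1 with controls 1 and 3 left out and 1 at a threshold of 0.01, and 1 to 4 with a library left out. With the replicate number as a block, 1 gene was called higher and 2 lower. Same-numbered libraries deviated with correlations of 0.0237, -0.0931 and -0.0743. These values give no sign of pairing by number but cannot exclude it, and the labels state no pairing. The median of the other members ranged from -0.0006484 to 0.0413 with a library left out. For the CUL3 core (0 called) limma voom gave 2. For the BTB-kelch list (0) no filter, DESeq2 and limma voom gave 1 each, and leaving out a library 0 to 1. For the substrates (4) limma voom gave 10, the replicate block 2, the Myl7 covariate 1, controls 1 and 3 left out 0, and single libraries left out 1 to 5. For the muscle ligases (3) these were 6 with limma voom, 1 with the Myl7 covariate, 0 with controls 1 and 3 left out, and 1 to 5. Calls over all genes moved too: 9.66% were called in the fit reported, 16.1% with limma voom, 8.53% with DESeq2, 9.27% with upper-quartile factors, 7.24% with the replicate block, 0.82% with the Myl7 covariate, 0.518% with controls 1 and 3 left out, and 2.55% to 10.8% with a library left out. The causes were not tested. Low counts, as for Klhl34 with 13 to 37 per library, limit precision.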
